A study of Mus musculus with 24 samples.

Results

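Well counted assembled loci are stretches of the mouse genome whose RNA reads were assembled into a transcript outside the annotated ones, and whose reads were frequent enough to be followed in single organoids. They were chosen as the features named XLOC_ with a mean raw count of 100 or more over the 24 deposited count tables, without 10 loci that hold many more reads. The rule gave 2113 loci, which are 2.64% of the 79999 assembled loci and part of a list of 126602 features. The mean count chose them, so the level of a locus is a description here and was not tested. The rule compared no timepoints, but a locus that was high in 1 timepoint and near 0 in the others could enter through that timepoint. Their mean counts ran from 100 to 4646, with a median of 155.6 and quartiles of 120.6 and 231.9. At the border, XLOC_093608 had a mean count of 100.0 and entered, and XLOC_030104, with 99.96, shared the next lower value with other loci and stayed out (3 loci in all). The 10 loci left out held 5.24% of all counted reads, the 2113 loci 3.19%, the 77876 loci with a lower mean count 6.28%, and the annotated genes 85.3%.

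The RNA came from mouse retinal organoids (MROs), small bodies of retinal tissue that form in culture from mouse embryonic stem cells, here the wild-type line E14Tg2a. One library was made from each of 24 single MROs, 6 for every timepoint (D20, D22, D25, D30, in days of differentiation). All groups carried the control genotype and received water as solvent, and all came from 1 experiment with 1 cell line, so p-values measure the spread between organoids of this experiment alone. The culture protocol of the study also gave all MROs the synthetic retinoid EC23 for some days before D20. Between 13634846 and 19477108 reads per MRO fell on a feature, and 3 counts were worth 0.154 to 0.22 CPM, the unit of counts relative to all counted reads of a library. Levels are given as normalized CPM, for which library sizes were scaled by TMM. The retinal label held in the marker genes. The 10 rod genes summed to between 498.3 and 1544 normalized CPM at D20 and between 6981 and 14010 at D30, and the 8 retinal progenitor genes to between 620.3 and 949.7 at D20 and between 146.1 and 267.1 at D30.

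RNA outside annotated genes has several known sources. Long noncoding RNAs, transcripts that run past the end of a gene, unspliced introns, RNA made at enhancers and RNA from the opposite strand of a gene all give reads there, and libraries of total RNA freed of ribosomal RNA hold more of them than libraries of polyadenylated RNA. Assembly software joins overlapping reads into such loci and numbers them, and the study retained those that lay between genes, wholly inside an intron, or across an exon on the other strand. In the developing retina many noncoding RNAs follow the steps from dividing progenitors to rods, the photoreceptors of dim light and the most frequent cells of the mouse retina. The deposited tables give each locus a name and a count, and neither a position nor a sequence, so the loci are named by number, no gene is assigned to them, and counts of different loci are not compared per length. In whole organoids, more cells of a type and more RNA per cell cannot be told apart.

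The loci took a larger share of the counted reads at D22 than at D20 or D25. The share was 3.24% ± 0.159 at D20, 3.6% ± 0.236 at D22, 3.15% ± 0.140 at D25, then 2.84% ± 0.368 at D30 (mean ± SD, n = 6 MROs each). The 6 MROs lay between 3.10% and 3.55% at D20, between 3.23% and 3.90% at D22, between 2.99% and 3.35% at D25, then between 2.36% and 3.30% at D30, so the ranges of neighbouring timepoints overlapped. The rise of 0.357 percentage points to D22 had p = 0.0173 in a two-sided exact permutation test (0.0346 after Benjamini-Hochberg adjustment over 4 comparisons). To D25 it fell by 0.445 percentage points, with an exact permutation p of 0.00649 (adjusted 0.026). From D25 to D30 the difference was -0.313 (exact permutation p = 0.0952), and from D20 to D30 it was -0.401 (exact permutation p = 0.0476, adjusted 0.0635). The rise to D22 lost its adjusted p under 0.05 when any of D20 replicates 1, 2, 3, 4 and 6 or D22 replicates 1, 2, 4 and 5 was left out, with adjusted exact permutation p up to 0.0635, and the fall to D25 when any of D22 replicates 1, 2, 4 and 5 was left out, with p up to 0.0519. Without D30 replicate 6, the differences of D30 from D25 (-0.404) and from D20 (-0.492) had adjusted exact permutation p of 0.039 and 0.0173. With all reads as the denominator the differences to D22 and D25 were 0.147 and -0.118 percentage points (adjusted exact permutation p = 0.026 and 0.0346). D30 then differed from D25 by -0.0859 and from D20 by -0.0569 (adjusted exact permutation p = 0.387 and 0.474). Shares of all reads are smaller, so these points do not compare directly with those above.

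The share of reads on these loci moved with the share of reads outside every feature. The shares are linked by how they are formed, since more reads outside every feature leave fewer counted reads to divide by. How much of their relation this makes was not tested. Reads outside every feature made up 41.8% ± 0.732 of all reads at D20, 42.9% ± 1.49 at D22, 40.4% ± 0.674 at D25, then 38.3% ± 2.52 at D30 (n = 6 MROs each). They fell by 2.5 percentage points from D22 to D25 (two-sided exact permutation p = 0.00217, adjusted over 4 comparisons 0.00866). Over the 24 MROs, with the differences between timepoints included, both shares had a Pearson correlation of 0.843 (permutation p = 1e-05, the smallest that 100000 permutations can give). The Spearman correlation was 0.72 (permutation p = 0.00015). Without the 2 MROs farthest from the median r was 0.788. Within single timepoints r was 0.746, 0.791, 0.681 and 0.609 for D20, D22, D25 and D30, none of them past 0.05 in 6 MROs (exact permutation p adjusted over 4 timepoints 0.207 to 0.219). The Spearman correlations were 0.143, 0.886, 0.771 and 0.6, with exact permutation p of 0.803, 0.0333, 0.103 and 0.242 before adjustment, so the relation within D20 was not seen in the ranks. D22 replicate 1 had both the largest share of reads outside every feature, 45.6%, and the largest number of loci whose raw count, not scaled for depth, was highest in it, 339 of 2113. Without it 128 loci passed the test described next at D22 against D20 (123 higher) and 205 at D25 against D22 (34 higher). Over all features 799 and 1561 then passed, against 894 and 2478 with this MRO.

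**Figure D1:**
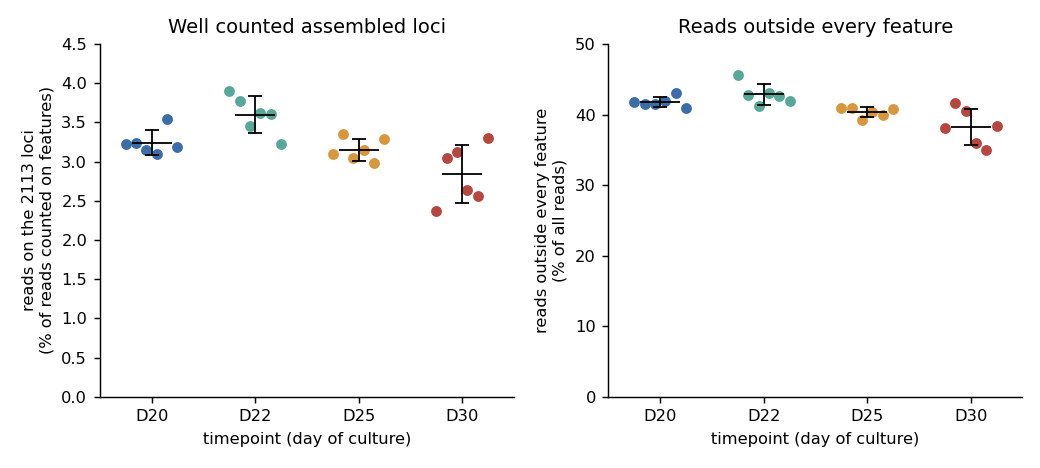
Left, percent of the reads counted on features that fell on the 2113 assembled loci, and right, percent of all reads that fell outside every feature, for each of 24 MROs (points) at D20, D22, D25 and D30, with the mean and SD (n = 6) as lines. The left values peak at D22 (mean 3.6%) and the right values are lowest at D30 (mean 38.3%).

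From D20 to D22 nearly all loci that changed rose. Of the 2113 loci 159 passed an adjusted p of 0.01 in the quasi-likelihood test of edgeR, against 1.9% of all 46949 tested features, and 156 of these rose (1.62% of all features rose) while 3 fell (0.285% of all features fell). This is 7.52% of the loci, and 4.53% of the 10948 annotated genes with a mean count of 100 or more passed (391 rose and 105 fell). The median log2 fold change was 0.16 over the loci, 0.02 over all tested features and -0.04 over those annotated genes, and 1387 loci lay above 0. Among the 28573 tested assembled loci under a mean count of 100, 186 rose and 7 fell (median log2 fold change 0.10). In 134 of the 2113 loci the 6 MROs of D20 and the 6 of D22 did not overlap, against 2.45% of all features. Among the 10948 annotated genes this held for 703, a share near that of the loci. Among the loci that passed, 86 rose and 2 fell by more than 2-fold, and 7 rose by more than 4-fold. The number that passed was 93 without D20 replicate 1, 104 without D22 replicate 3 and 240 with the test of DESeq2, in each with a majority that rose. Over all features these gave 479, 472 and 1605, against 894.

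From D22 to D25 the direction turned. There 285 loci passed, against 5.28% of all features, of which 239 fell (2.19% of all features fell) and 46 rose (3.08% of all features rose). The annotated genes with a mean count of 100 or more passed at nearly the same rate, 13.4% against 13.5% of the loci, with 1034 that rose and 432 that fell. That split of the annotated genes depended on the scaling, being 754 to 732 with TMM factors from annotated genes alone, while the loci then had 39 that rose and 308 that fell. The median log2 fold change was -0.21 over the loci, -0.05 over all tested features and 0.10 over the annotated genes. Tested assembled loci under a mean count of 100 had 211 that rose and 315 that fell (median log2 fold change -0.16). The MROs did not overlap in 268 loci (5.46% of all features) and in 1397 of the 10948 annotated genes, a share near that of the loci. Of the loci that passed, 129 fell and 33 rose by more than 2-fold. With the share of reads outside every feature as a covariate, an alternative chosen after seeing the data, 128 loci passed, 95 of them lower and 33 higher. Over all features 1074 then passed, against 2478 without the covariate.

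From D25 to D30 falls again outnumbered rises. Here 150 loci passed, against 3.51% of all features, with 128 that fell (1.75% of all features fell) and 22 that rose (1.76% of all features rose). This is 7.10% of the loci, and annotated genes with a mean count of 100 or more passed more often, at 8.97%. Among the annotated genes of that mean count 582 rose and 400 fell (491 and 518 with TMM factors from annotated genes alone, under which 18 loci rose and 138 fell), and the median log2 fold change was -0.19 over the loci, -0.02 over all tested features and 0.03 over the annotated genes. The 6 and 6 MROs did not overlap in 168 loci (4.29% of all features) and in 940 of the 10948 annotated genes, a share near that of the loci. Falls of more than 4-fold were found in 12 loci and rises of that size in 3. Of the tested assembled loci under a mean count of 100, 65 rose and 230 fell (median log2 fold change -0.06).

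Over the whole interval, from D20 to D30, 1045 of the loci passed, against 26.8% of all features. Of these 689 fell (13% of all features fell) and 356 rose (13.9% of all features rose). The MROs of D20 and D30 did not overlap in 718 loci (18.9% of all features) and in 3829 of the 10948 annotated genes with a mean count of 100 or more, a share near that of the loci. The annotated genes passed at a near rate, 48.0% against 49.5% of the loci, with 3116 that rose and 2137 that fell. The share of falls among the loci that passed was thus 65.9% and among the annotated genes 40.7%. With TMM factors from annotated genes alone 741 loci fell and 304 rose, against 2632 and 2699 annotated genes. With the share of reads outside every feature as a covariate 435 loci fell and 339 rose. Over all features 8064 then passed, against 12592 without the covariate. The median log2 fold change was -0.23 over the loci, -0.04 over all features and 0.09 over the annotated genes. Among tested assembled loci under a mean count of 100, 2064 rose and 2686 fell (median log2 fold change -0.13). Falls of more than 4-fold were found in 98 loci and rises of more than 4-fold in 68. A mean of 100 or more in a single timepoint was reached by 1713 loci at D20, 1954 at D22, 1913 at D25, then 1639 at D30, and by 1242 loci in each of the 4, so part of the loci entered the list through the timepoints in which they were high.

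**Figure D2:**
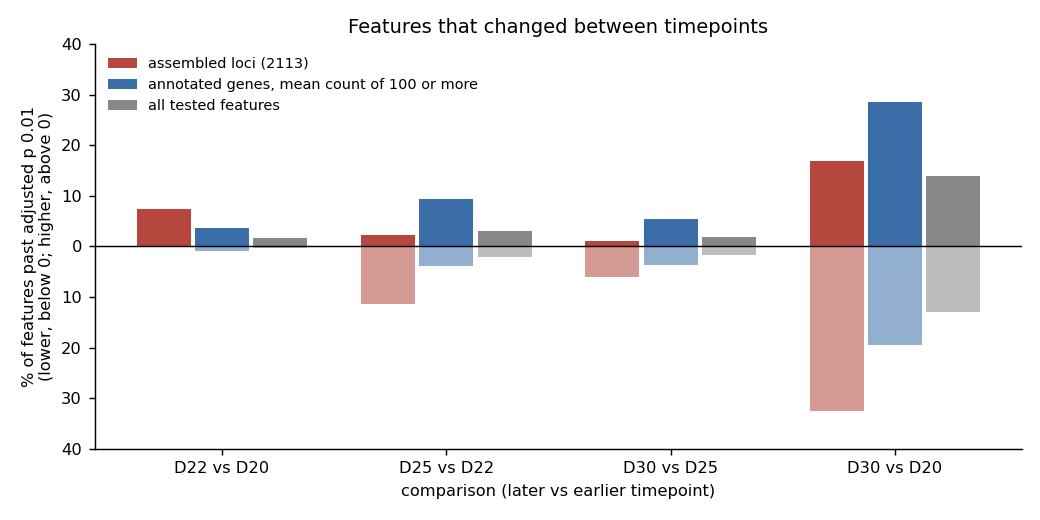
Percent of features past an adjusted p of 0.01 that were higher (above 0) or lower (below 0, paler) at the later timepoint, for the 2113 assembled loci, the 10948 annotated genes with a mean count of 100 or more and all 46949 tested features. The loci rise at D22 (156 of 159) and fall at D25 (239 of 285) and at D30 (128 of 150), while more annotated genes rise than fall in each comparison under this scaling, with 491 up and 518 down from D25 to D30 under TMM factors from annotated genes alone. Tested assembled loci under a mean count of 100 are not drawn. Theirs were 186 up and 7 down at D22, 211 and 315 at D25, then 65 and 230 at D30.

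The joint test of all 4 timepoints passed in 1163 loci, against 27.2% of all features. Sorted by the timepoint of their highest mean, 451 of them (38.8%) were highest at D20, 339 (29.2%) at D22, 151 (13.0%) at D25, then 222 (19.1%) at D30. Their lowest mean lay at D30 in 721 loci (62.0%) and at D20 in 382, and seldom at D22 (24) or D25 (36). Over all 12767 features that passed, the highest mean lay at D20 in 33.9%, D22 in 13.6%, D25 in 8.21% and D30 in 44.3%. The lowest mean of these features lay at D20 in 36.7%, D22 in 15.7%, D25 in 6.14% and D30 in 41.5%. The 5536 annotated genes with a mean count of 100 or more that passed the joint test were highest at D20 in 31.6% and at D22 in 6.74%. They were highest at D25 in 9.45% and at D30 in 52.2%. The means fell at every step in 419 loci and rose at every step in 186. In the single steps 1619 loci passed none of the 3 tests. Of the others 185 fell only at D25, 118 rose only at D22 and 68 fell only at D30, while 46 fell at both D25 and D30. Of the 156 loci that rose to D22, 105 were still higher at D30 than at D20 by the test, 20 rose again at D25, then 5 fell at D25. No comparison and not the joint test passed in 871 loci.

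**Figure D3:**
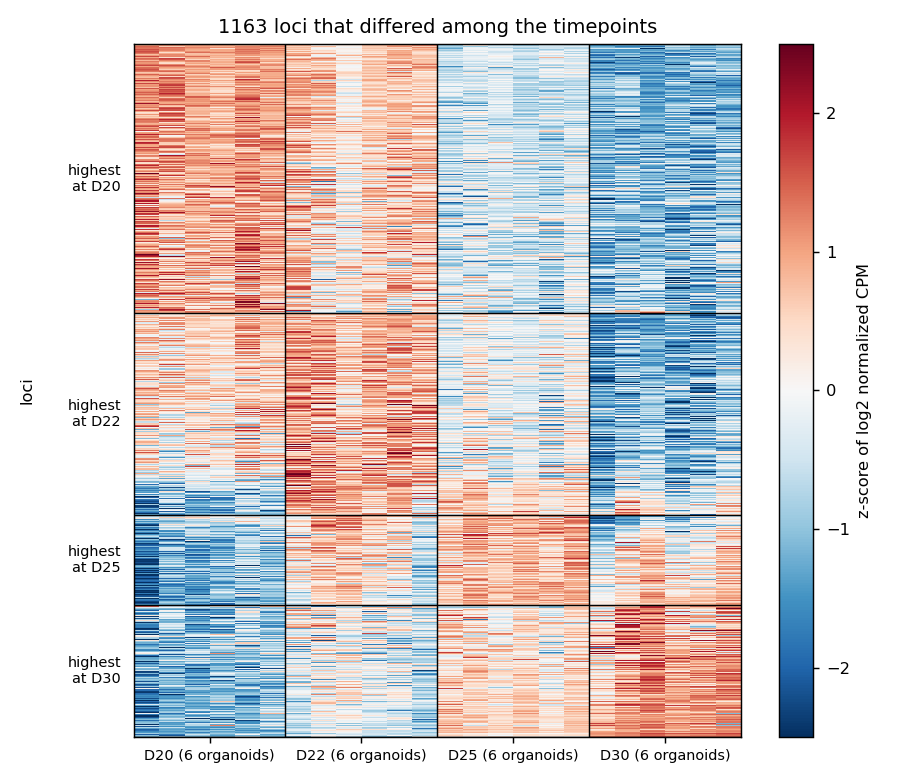
Levels of the 1163 loci past the joint test (rows) in 24 MROs (columns, by timepoint), as the z-score of log2 normalized CPM over the 24 MROs (red high, blue low). Rows are grouped by the timepoint of the highest mean (451, 339, 151 and 222 loci from D20 to D30), so the red blocks follow from the sorting, and the low values gather at D30 (721 loci) and D20 (382 loci). Over all features past the joint test the lowest mean lay at D30 in 41.5% and at D20 in 36.7%.

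The largest rise was that of XLOC_107602, which was almost silent before D25. Its normalized CPM had a lowest, median and highest value of 0, 0 and 0.498 at D20, 0, 0.135 and 1.40 at D22, 2.32, 3.95 and 5.67 at D25, then 62.4, 93.5 and 144.6 at D30. All MROs of D25 lay above all of D22, and all of D30 above all of D25. The means ± SD (n = 6) were 0.117 ± 0.204, 0.499 ± 0.678, 4.11 ± 1.34 and 96.2 ± 29.6. The log2 fold change was 3.03 from D22 to D25 (SE 0.505, adjusted p = 0.00018), 4.54 from D25 to D30 (SE 0.407, adjusted p = 6.04e-09) and 9.63 from D20 to D30 (SE 0.601, adjusted p = 1.03e-13), the largest of its kind in each of the 3 comparisons among the loci whose MROs did not overlap. Its mean counts were 1.67, 7.33, 68.5 and 1584, so it met the minimum mean count only through D30 and had to differ there. Without D20 replicate 5 the log2 fold change from D20 to D30 was 10.97, and without D22 replicate 2 or 6 that from D22 to D25 was 3.65 or 3.63. The 10 reads of all D20 MROs stand against 9501 at D30, a ratio of 795 per counted read with a 95% interval of 432.1 to 1658 (exact binomial, counting error only). The annotated gene with the most similar log2 normalized CPM over the 24 MROs was Gnat1, the alpha subunit of rod transducin, with r = 0.975, and Pde6a, a catalytic subunit of the rod phosphodiesterase, had r = 0.965. Such values describe a shared time course and libraries, with the timepoints included. After subtraction of the timepoint means r was 0.572 for Gnat1, 0.578 for Pde6a and 0.301 for the sum of the 10 rod genes.

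XLOC_020528 was one of 4 loci that rose in all 3 steps. Its lowest, median and highest normalized CPM were 0.0688, 0.168 and 1.02 at D20, 0.858, 2.39 and 3.91 at D22, 10.9, 13.2 and 14.7 at D25, then 22.3, 37.0 and 48.8 at D30. From D25 on no MRO overlapped with those of the timepoint before, and of the D20 MROs only replicate 6 exceeded the lowest of D22. The log2 fold change was 2.99 to D22 (adjusted p = 8.43e-05), 2.38 to D25 (adjusted p = 1.55e-05), 1.43 to D30 (adjusted p = 0.0019), and 6.80 from D20 to D30 (SE 0.420, adjusted p = 8.51e-14), or 7.77 without D20 replicate 6. Its mean counts of 4.5, 36.2, 211.8 and 564.8 put it on the list through the late timepoints. Most similar were Rcvrn (recoverin, the calcium sensor of photoreceptors, r = 0.984), Cplx4 (a complexin of photoreceptor synapses, r = 0.981) and Mpp4 (a scaffold protein of the same synapses, r = 0.979). Without the timepoint means these were 0.685, 0.779 and 0.594.

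The other 3 loci that rose in every step were named after their values were seen. XLOC_130519 had a median of 2.47 normalized CPM at D20 (1.89 to 3.71), 7.11 at D22 (5.64 to 15.2), 27.4 at D25 (18.2 to 31.2), then 58.1 at D30 (37.0 to 70.0). All MROs of a timepoint lay above all of the one before, and the log2 fold change from D20 to D30 was 4.36 (SE 0.232, adjusted p = 4.53e-15). XLOC_036394 went from a mean of 7.55 ± 2.45 at D20 over 24.7 ± 7.73 at D22 and 48.3 ± 6.48 at D25 to 93.1 ± 21.8 at D30 (log2 fold change from D20 to D30 3.62, SE 0.220, adjusted p = 6.05e-14), likewise with no overlap at any step. XLOC_031792 had means of 0.386 ± 0.225, 2.32 ± 1.17, 6.36 ± 1.94 and 23.7 ± 6.13, and its log2 fold change from D20 to D30 was 5.92 (SE 0.399, adjusted p = 5.61e-13). It too entered the list through the late timepoints, with mean counts of 5.67, 34.2, 105.8 and 392.8. The gene most similar to the first was Slc24a1, the sodium, calcium and potassium exchanger of rods (r = 0.993). For the second they were Impg2, a proteoglycan of the matrix around photoreceptors (r = 0.989), and Prph2, which shapes the discs of the outer segment (r = 0.984), and for the third Gucy2e, a guanylate cyclase of photoreceptors (r = 0.960). After subtraction of the timepoint means these correlations were 0.886, 0.849, 0.826 and 0.529.

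XLOC_110404 had the largest rise from D20 to D22 among the loci without overlap. Its lowest, median and highest normalized CPM were 3.85, 8.33 and 13.1 at D20, 15.7, 55.8 and 101.7 at D22, 86.0, 108.6 and 146.9 at D25, then 62.7, 127.7 and 191.4 at D30. The first step carried most of its change, with a log2 fold change of 2.78 (SE 0.320, adjusted p = 5.25e-06), and the next had 0.96 (adjusted p = 0.0293) and 0.17 (adjusted p = 0.845). D22 was also the timepoint of its widest relative spread (SD 30.2 for a mean of 56.8), with replicate 6 lowest. Its nearest genes were Abhd14b (r = 0.971), Slc1a1, a glutamate transporter (r = 0.969), and Akap1, an anchor of protein kinase A on mitochondria (r = 0.968). Without the timepoint means these were 0.777, 0.744 and 0.816.

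Among the loci that fell, XLOC_030886 had the largest fall from D20 to D30. Its lowest, median and highest normalized CPM were 12.7, 28.6 and 33.5 at D20, 11.2, 19.5 and 25.0 at D22, 1.60, 4.25 and 5.73 at D25, then 0.116, 0.386 and 0.718 at D30. The MROs of D20 and D22 overlapped, and those of the later steps did not. Its mean counts of 390.5, 276.3, 61.5 and 6.5 put it on the list through D20 and D22. The log2 fold change was -0.51 to D22 (adjusted p = 0.313), -2.29 to D25 (adjusted p = 4.94e-06), -3.23 to D30 (adjusted p = 4.56e-07) and -6.04 from D20 to D30 (SE 0.368, adjusted p = 6.05e-14). Mybl1, a transcription factor of the MYB family, had the most similar levels (r = 0.974), followed by Igf2bp1, an RNA-binding protein of embryonic tissue (r = 0.971), and Miat, a long noncoding RNA (r = 0.971). After subtraction of the timepoint means r was 0.475, 0.562 and 0.598 for these genes in turn.

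XLOC_001380 had the largest fall in the step to D25 among the loci without overlap. Its lowest, median and highest normalized CPM were 10.6, 12.1 and 14.1 at D20, 6.35, 14.2 and 22.8 at D22, 0.811, 2.08 and 3.33 at D25, then 0.0554, 0.206 and 0.963 at D30. The D22 MROs were spread on both sides of the D20 range, while no D25 MRO reached the lowest of D22. The log2 fold change was -2.77 to D25 (SE 0.350, adjusted p = 5.88e-06) and -2.61 to D30 (adjusted p = 0.000157, with overlap of the MROs). Its mean counts were 179.5, 209.7, 33.8 and 5.33, so it met the minimum mean count only through D20 and D22. Ezh2, the methyltransferase of the Polycomb complex, was the most similar gene (r = 0.970, and 0.645 after subtraction of the timepoint means).

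Falls as early as D22 were found in 3 loci, the other two named after their values were seen. XLOC_102875 was the one whose MROs did not overlap, with a lowest, median and highest normalized CPM of 14.3, 21.1 and 29.7 at D20 and 8.24, 9.06 and 11.6 at D22 (log2 fold change -1.12, SE 0.201, adjusted p = 0.000846), and means of 3.74 ± 0.991 at D25, then 2.42 ± 0.654 at D30. Its mean counts of 302.2, 140.5, 61.2 and 39.8 put it on the list through D20 and D22. XLOC_054313 had 170.9 ± 29.5 at D20, 81.9 ± 42.1 at D22, 19.0 ± 6.54 at D25, then 9.87 ± 1.49 at D30. Its fall to D22 (log2 fold change -1.06, SE 0.231, adjusted p = 0.00523) did not separate the MROs, since D22 replicate 6, with 153.8, lay within the D20 range of 128.0 to 210.4. XLOC_058489 had means of 47.5 ± 8.80, 27.5 ± 4.81, 16.2 ± 2.70 and 14.9 ± 2.18, with a log2 fold change to D22 of -0.79 (SE 0.141, adjusted p = 0.000808). The genes with the nearest levels were Plagl1, a zinc finger transcription factor (r = 0.958), and Crabp2, a retinoic acid binding protein (r = 0.956), for XLOC_102875. For XLOC_054313 they were Rpl5, a protein of the large ribosomal subunit (r = 0.986), Acsl3, an acyl-CoA synthetase (r = 0.979), and Npm1, the nucleolar protein nucleophosmin (r = 0.977), and for XLOC_058489 Fign (r = 0.938). After subtraction of the timepoint means these 6 correlations were 0.509, 0.503, 0.879, 0.730, 0.754 and 0.486, in the order given. The call of XLOC_054313 to D22 was lost when any of D20 replicates 1, 2 and 3 or D22 replicates 2, 3, 4 and 5 was left out (adjusted p up to 0.0189).

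A transient rise followed by falls at D25 and D30 passed in 3 loci. XLOC_082742 had the largest fall from D25 to D30, with a lowest, median and highest normalized CPM of 11.6, 15 and 19.9 at D20, 23.4, 37.4 and 56.0 at D22, 7.29, 9.62 and 24.8 at D25, then 0, 0.375 and 0.579 at D30. It was above D20 in all 6 MROs of D22 and below every earlier MRO in all 6 of D30. Its mean counts of 233.3, 565.3, 207.2 and 5.33 put it on the list through the timepoints before D30. The log2 fold change was 1.28 to D22 (SE 0.279, adjusted p = 0.0053), -1.59 to D25 (SE 0.281, adjusted p = 0.000332) and -5.27 to D30 (SE 0.392, adjusted p = 1.72e-10). The other 2, named after their values were seen, had smaller changes. XLOC_031574 had means of 9.99 ± 0.887, 17.4 ± 2.6, 8.98 ± 1.82 and 4.5 ± 1.29, with no overlap at any step and log2 fold changes of 0.80, -0.95 and -0.99 (adjusted p = 0.0053, 0.000483 and 0.000413). XLOC_092668 had means of 14.1 ± 4.66, 29.5 ± 9.23, 13.5 ± 4.90 and 3.17 ± 1.09 and log2 fold changes of 1.06, -1.13 and -2.08 (adjusted p = 0.00757, 0.00206 and 2.04e-06), with overlap at the first and second steps. Rreb1, a zinc finger transcription factor, was among the 3 genes most like XLOC_082742 (r = 0.960) and XLOC_092668 (r = 0.947). The list for XLOC_082742 also held Mtus2 (r = 0.965) and Otx2, a homeobox factor of photoreceptors and bipolar cells (r = 0.956), and that for XLOC_092668 was led by Ece1, the endothelin-converting enzyme (r = 0.957). After subtraction of the timepoint means r with XLOC_082742 was 0.250 for Mtus2, 0.377 for Rreb1 and 0.519 for Otx2. With XLOC_092668 it was then 0.787 for Ece1 and 0.752 for Rreb1.

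**Figure D4:**
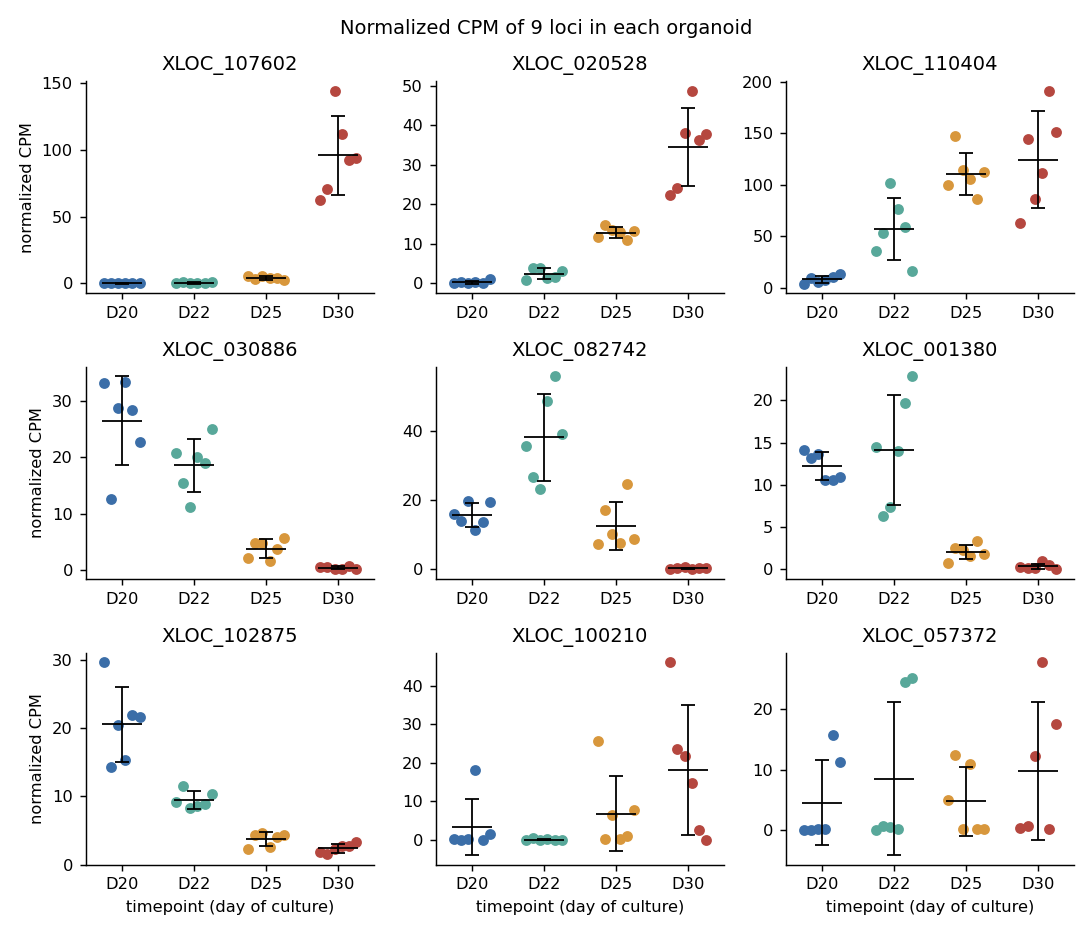
Normalized CPM of 9 loci in each of 24 MROs (points) at D20, D22, D25 and D30, with the mean and SD (n = 6) as lines, on linear axes that start at or just below 0 and differ between panels. XLOC_107602 is near 0 until D22 and reaches 62.4 to 144.6 at D30, XLOC_082742 peaks at D22, and XLOC_057372 is high in some MROs of every timepoint and near 0 in the others.

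The 2 loci with the most reads moved less and in opposite directions. XLOC_130672, with the highest mean count of 4646, had a lowest, median and highest normalized CPM of 354.7, 387.7 and 534.6 at D20, 280.3, 357.1 and 496.7 at D22, 216.9, 243.4 and 263.1 at D25, then 144.1, 186.0 and 230.1 at D30. It fell from D22 to D25 (log2 fold change -0.59, SE 0.122, adjusted p = 0.00153, no overlap), and by D30 it was at a log2 fold change of -1.13 from D20 (adjusted p = 1.19e-08). XLOC_049191, with a mean count of 4558, went the other way, with a median of 187.5 at D20 (142.2 to 266.5), 293.6 at D22 (195.7 to 386.2), 325.4 at D25 (264.2 to 372.8), then 318.8 at D30 (241.9 to 501.8). Its log2 fold change from D20 to D30 was 0.80 (SE 0.159, adjusted p = 0.000147), although the ranges overlapped, and its step to D22 missed the threshold (0.62, adjusted p = 0.0184). Rbpj, the nuclear effector of Notch signalling, was most similar to the first (r = 0.942), and Sp4, a zinc finger transcription factor, to the second (r = 0.890). Without the timepoint means these were 0.627 and 0.761. The steadiest locus over all 6 pairs of timepoints, XLOC_085886, had means of 12.6 at D20, 12.6 at D22, 12.6 at D25, then 12.5 at D30, and none of its log2 fold changes exceeded 0.0088 in size.

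Levels of these loci varied more between MROs of a timepoint than those of annotated genes with a mean count of 100 or more, which were not matched to them for counts. The median biological coefficient of variation was 0.241 over the loci and 0.176 over the annotated genes, and the median SD of log2 normalized CPM within timepoints was 0.348 and 0.234. Even so, few loci rested on a single organoid. The MRO with the most reads of a locus held a median of 7.04% of them, where an equal share would be 4.17%, more than 10% in 175 loci, more than 20% in 4, and at most 28.5%. In 18 loci some MRO had 3 counts or fewer, and in 8 loci some MRO had none.

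The 2 loci with the widest spread within timepoints switched between organoids. XLOC_057372 (SD of log2 normalized CPM within timepoints 3.07) was low in most MROs and high in some at every timepoint. It reached 15.7 and 11.3 normalized CPM in replicates 5 and 6 of D20 and 24.6 and 25.2 in replicates 5 and 6 of D22, with no other MRO of those timepoints above 0.768. At D25 replicates 1, 2 and 4 had 4.98, 12.5 and 10.9 and the others at most 0.122, and at D30 replicates 3, 4 and 6 had 12.3, 27.8 and 17.5 and the others at most 0.612. None of the 6 comparisons of timepoints passed (adjusted p 0.525 or more). The genes whose deviations from the timepoint means were most like it had r of at most 0.694. MROs with the same replicate number are different organoids, so the shared numbers at D20 and D22 carry no pairing.

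XLOC_100210 (SD within timepoints 2.51) was near 0 in all 6 MROs of D22 and reached 18.2 normalized CPM in replicate 4 of D20, 25.6 in replicate 1 of D25 and 46.1 in replicate 1 of D30. Its lowest, median and highest values at D30 were 0, 18.3 and 46.1. From D22 to D30 its log2 fold change was 7.53 (SE 1.59, adjusted p = 0.000422), and 8 reads at D22 stood against 1825 at D30, a ratio of 193.6 (95% interval 98.0 to 449.1, exact binomial, counting error only). That interval leaves out the spread between MROs. Its mean counts of 51, 1.33, 116.3 and 304.2 put the locus on the list through D25 and D30. No other comparison passed, with adjusted p = 0.0107 from D22 to D25. Its deviations from the timepoint means went with those of Dlx6os1, a long noncoding RNA of the Dlx5 and Dlx6 locus (r = 0.961), Dcx, doublecortin, a microtubule protein of migrating neurons (r = 0.905), and Lrrtm2, a synaptic adhesion protein (r = 0.884). They also went with the summed level of 6 markers of cortex type neurons (r = 0.694), which ranged from 13.7 to 225.5 normalized CPM at D20, from 11.8 to 23.2 at D22, from 8.58 to 373.4 at D25 and from 7.98 to 233.6 at D30. That list includes Neurod6, which the study gives as a gene of postmitotic amacrine cells. With the lists of ganglion cells, amacrine cells and Müller glia described below r was 0.487, 0.451 and 0.432, and with that of bipolar cells -0.52. The part of any of these cell types in the level of the locus was not tested.

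The numbers in the names of the loci carried information that the choice did not use. The names give each locus a number from the assembly, and the files do not give the positions behind them. Deviations from the timepoint means correlated with a median r of 0.459 over 294 pairs of loci with consecutive numbers, 0.506 over 771 pairs that were 2 to 5 apart, 0.509 over 1637 pairs that were 6 to 20 apart and 0.300 over 4487 pairs that were 21 to 100 apart, against 0.0558 over the 2224139 pairs that were farther apart. All pairs share the same 24 libraries. When loci at most 5 numbers from the next were joined, 972 of the 2113 loci fell into 325 series of 2 or more and 1141 stood alone. Whether the loci of a series are pieces of 1 longer transcript was not tested. Each is counted singly in the numbers of loci given above, which are therefore not counts of independent transcripts.

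Of these series 5 held 10 or more loci, 100 in all. The largest ran from XLOC_049167 to XLOC_049206, held 32 of the loci, XLOC_049191 among them, and took 7.0% of all reads on the 2113 loci. The median correlation of deviations between its loci was 0.739. None of its loci fell in any comparison, 8 rose from D20 to D22 and 24 from D20 to D30, with a median log2 fold change of 0.78 from D20 to D30 and a range of 0.32 to 1.63. Its summed normalized CPM was 1539 ± 296.8 at D20, 2407 ± 509.2 at D22, 2480 ± 340.1 at D25, then 2553 ± 668 at D30 (n = 6). XLOC_049198 and XLOC_049199, among the 10 loci left out by the rule, carry numbers within the series. The series from XLOC_087639 to XLOC_087689 (26 loci) had its highest sum at D22, 439.7 ± 108.9 against 260.7 ± 55.3 at D20 and 346.1 ± 77.6 at D30, and 6 of its loci rose to D22 and 4 from D20 to D30.

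The series from XLOC_083558 to XLOC_083584 held 15 loci, all of which fell from D20 to D30, with log2 fold changes of -2.08 to -1.40. Of these 12 fell already from D22 to D25. The sum went from 320.2 ± 53.2 at D20 over 237.2 ± 52.8 and 117.3 ± 10.9 to 90.2 ± 17.9 at D30, and no MRO of D25 reached the lowest of D22 (104.9 to 133.9 against 173.7 to 324.9). The series from XLOC_039717 to XLOC_039743, also held 15 loci that all fell from D20 to D30 (log2 fold changes of -1.59 to -0.79), 2 of which fell from D22 to D25, with a sum of 244.6 ± 40.7 at D20, 273.7 ± 55.8 at D22, 180.9 ± 23.3 at D25, then 116.8 ± 27.9 at D30. In the series from XLOC_069712 to XLOC_069730 all 12 loci rose from D20 to D30, with log2 fold changes of 0.77 to 1.54, and the sum was 105.4 ± 19.8, 172.6 ± 41.0, 228.5 ± 24.9 and 212.0 ± 44.9. Among annotated genes, chosen after the values were seen, the sum of the largest series was most like Sp4 (r = 0.880) and that of the series from XLOC_083558 like Chd1, a chromatin remodeller (r = 0.95). After subtraction of the timepoint means these correlations were 0.754 and 0.398.

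**Figure D5:**
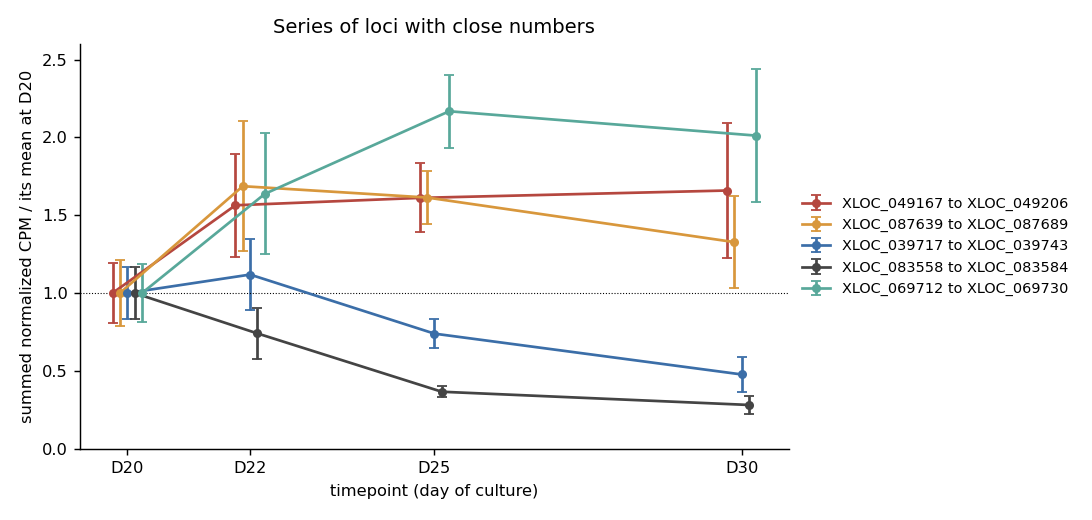
Summed normalized CPM of the 5 series of 10 or more loci with close numbers, divided by the mean of the series at D20, against the day of culture (mean and SD, n = 6 MROs, points shifted sideways for clarity). The sum from XLOC_083558 to XLOC_083584 falls from 320.2 to 90.2 normalized CPM and that from XLOC_069712 to XLOC_069730 rises from 105.4 to 212.0.

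Within timepoints the loci were set against the summed level of 10 lists of cell type markers, as a description over 24 MROs that share libraries and depth. With the rod list (Nrl, Nr2e3, Gnat1 and others), deviations of 128 loci correlated above 0.6 (6.06% of the loci and 5.05% of the annotated genes with a mean count of 100 or more) and those of 15 below -0.6 (0.71% and 2.8%). With the retinal progenitor list (Hes1, Hes5, Sox2 and others), 8 loci lay above 0.6 (0.379% and 4.31%) and 118 below -0.6 (5.58% and 2.44%). For Müller glia, the radial glia of the retina, 10 loci lay above 0.6 (0.473% and 9.72%) and 54 below -0.6 (2.56% and 0.43%). For cortex type neurons 21 lay above 0.6 (0.994% and 9.11%), for dividing cells 3 (0.142% and 2.18%), for amacrine cells 11 (0.521% and 1.68%) and for bipolar cells 16 (0.757% and 0.914%). The lists of ganglion cells, pigment epithelium and mesenchyme with vessels had 9 (0.426% and 5.54%), 22 (1.04% and 0.685%) and 2 (0.0947% and 0.42%). Rpe65 and Best1 of the pigment epithelium and Cdh5 of vessels were too low to be tested and were left out of the sums.

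The loci that rose to D22 went with the rod list within timepoints as well. Over the 156 loci the median correlation of deviations was 0.51 with the rod list, above 0 in 149, and -0.53 with the progenitor list, above 0 in 4. It was also negative with the Müller glia list (-0.44, above 0 in 3) and with the list of cortex type neurons (-0.156, above 0 in 24). Over all 2113 loci the medians were 0.0668, -0.14, -0.198 and -0.124 for these lists in turn. No such medians are given for annotated genes that rose to D22. The rod list summed to between 498.3 and 1544 normalized CPM at D20 and between 1763 and 4882 at D22, so its MROs did not overlap at the step where these loci rose. For the 239 loci that fell to D25 the median was -0.22 with the rod list, above 0 in 46, and 0.147 with the progenitor list, above 0 in 178. The 356 loci that were higher at D30 than at D20 had a median of 0.419 with the rod list, and the 689 that were lower had -0.131. With the Müller glia list these medians were -0.35 and -0.0936. The part of the number of rods, progenitors or Müller glia in these differences was not tested.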

How the data were processed

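RNA sequencing counts of 24 single MROs were analysed, 6 at each of 4 timepoints, grouped by the sample labels. The authors trimmed the reads (cutadapt 1.5), aligned them to the mouse genome GRCm38/mm10 with hisat2, assembled new transcripts with StringTie (version 1.3.3) and counted reads per feature with HTSeq (version 0.6.1), from strand-specific libraries of total RNA freed of ribosomal RNA. Whether the counting used the strand is not given in the sources used here, so a locus opposite a gene may hold reads of that gene. The deposited values are raw counts, whole numbers without normalization. Reads outside every feature made up 35.0% to 45.6% of all reads and did not enter library sizes.

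Features whose normalized counts averaged 10 or more were tested (46949, among them all 2113 loci) in one edgeR fit (version 4.0.16, R 4.3.3) of all MROs with TMM scaling and the quasi-likelihood test. Benjamini-Hochberg adjustment ran over all tested features, with a threshold of 0.01. Normalized CPM are CPM with TMM-scaled library sizes, and correlations used log2 normalized CPM with a prior count of 2. Shares of reads were compared by two-sided exact permutation tests with a threshold of 0.05. Depth was 13634846 to 19477108 counted reads, and precision was set by the spread between MROs (common biological coefficient of variation 0.385). Symbols came from a GENCODE annotation of the same build.

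The loci, the marker lists and the rule for the named loci were chosen with earlier results of these data known. By that rule the text names the largest rise and fall without overlap between MROs in each step (2 each for D20 to D30), the 2 loci with the most reads, the 2 most variable, the steadiest, those at the border of the list, and for each the 3 annotated genes (mean count of 100 or more) with the highest correlation. A few of these genes and of the markers are not reported here. Loci outside the rule are marked in the text. Replicate numbers did not pair MROs: deviations of MROs with the same number correlated between -0.0833 and 0.214 across timepoints, over 0.1 in 1 of 36 pairs. All 60 pairs of MROs within a timepoint differed beyond counting noise (lowest chi-square divided by its degrees of freedom 6.02). Alternatives were the test of DESeq2 (version 1.42.0), other scalings, filters, thresholds and count minimums, a replicate block, fits of the compared timepoints alone, a minimum change of 1.5-fold, the share of reads outside features as a covariate (added after seeing the data) and the omission of each MRO. Scripts were tested on simulated counts.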

Additional observations from a re-analysis of the deposited data

Results flagged for a closer look

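Within groups of 6 MROs, the gap between the most extreme MRO and its neighbour was compared with Dixon's critical value over 112 groups, of which 6 exceeded it, where chance alone gives about 5.6. The share of reads on the loci in D20 replicate 5 was 3.55%, with the other MROs of D20 between 3.10% and 3.23%. XLOC_020528 had 1.02 normalized CPM in D20 replicate 6 against at most 0.269 in the others. XLOC_100210 stood out in 3 groups, with 18.2 normalized CPM in D20 replicate 4 against at most 1.60, 0.419 in D22 replicate 2 against at most 0.137, and 25.6 in D25 replicate 1 against at most 7.69. XLOC_092668 had 23.3 normalized CPM in D25 replicate 5 against at most 12.4.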

How the results depend on the processing

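No count, share of reads or named log2 fold change of the loci reversed under the alternatives run for it, while the split of annotated genes from D25 to D30 did under TMM factors from annotated genes alone (491 up and 518 down). Sums of series and correlations with marker lists were not recomputed. Of 493 values of single loci under alternatives 486 remained on their side of the threshold, and the other 7 were those of XLOC_054313 given above. The numbers of loci that passed for D22 against D20, D25 against D22, D30 against D25 and D30 against D20 were 21, 37, 35 and 514 for a change of at least 1.5-fold, and the first 3 were 306, 521 and 302 at an adjusted p under 0.05. With a mean count of 50 or more they were 251, 487, 268 and 2282 (2406 in the joint test), and with 200 or more 93, 136, 76 and 381 (460 in the joint test), since these lists hold more or fewer loci. DESeq2 gave 240 for D22 against D20, and the covariate of reads outside features gave 128 for D25 against D22, and the cause was not tested. Over all features they gave 1605 and 1074, where the main fit gave 894 and 2478. With size factors of DESeq2 the 4 counts were 151, 264, 137 and 1022, with TMM factors from annotated genes alone 173, 347, 156 and 1045, and in both the majority direction of the loci was the one given above. The replicate block gave 158, 279, 163 and 1040 (joint test 1137) and changed no count by over 1.5 times. Without 1 MRO the counts ranged from 93 to 215, 205 to 331, 112 to 173 and 975 to 1050, and from 1074 to 1171 in the joint test. The share of reads differed from D20 to D30 by -0.692 with a mean count of 50 or more (adjusted exact permutation p = 0.0346), and without 1 MRO the differences ranged from 0.297 to 0.431, from -0.519 to -0.385, from -0.404 to -0.217 and, for D30 against D20, from -0.492 to -0.306. The depth limits these statements to loci with frequent reads, and a level near 0 means few reads, not absence of RNA.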

Other observations

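Of the 2113 loci 4 had over 20% of their reads in a single MRO, each time at D30. XLOC_107602 and XLOC_100210 are described above, and the other two were chosen after their values were seen. XLOC_044220 had 21.2% of its reads in D30 replicate 3, with means of 2.83 ± 1.54, 5.40 ± 2.26, 16.3 ± 5.61 and 26.3 ± 17.3 normalized CPM from D20 to D30 (n = 6), and XLOC_113212 had 21.4% in D30 replicate 1, with means of 1.68 ± 1.52, 1.33 ± 0.570, 7.75 ± 4.54 and 23.8 ± 17.0. D30 replicate 6 was the MRO with the highest raw count of 226 loci, not scaled for depth. In it 8.20% of the counted reads fell on assembled loci with a mean count under 100, where the mean at D30 was 6.00%.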
